A study of Mus musculus with 24 samples.

Results

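The genes of glycolysis, glycogen turnover and pyruvate entry were followed in the left ventricle of C57Bl6/J mice under metabolo-hypertensive stress and after it. The 40 genes were taken by symbol from a table of 24972 gene symbols, and all 40 were found. They cover glucose transport, the steps from hexokinase to pyruvate kinase, lactate handling, pyruvate entry into mitochondria, and glycogen synthesis and breakdown. Of these, 39 reached 1 TPM (the usual transcript-per-million unit, a share of the transcripts of a library corrected for transcript length) in at least 3 libraries and were tested. The exception was Aldoc, an aldolase gene of brain, with at most 0.29 TPM in any library.

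Total RNA of the free wall of the left ventricle was turned into stranded mRNA libraries. There were 24 libraries in 8 groups of 3. These were untreated male and female controls at day 28 and at day 56, and male and female mice under metabolo-hypertensive stress (MHS) at day 28. The others, titled MHS + RR, were male and female mice after MHS and reverse remodeling (MHS_RR) at day 56. The titles do not say what reverse remodeling consisted of. MHS paired angiotensin II (AngII) with a high-fat diet (HFD), so effects of the agent and of the diet cannot be told apart. The labels give neither the age of the mice nor whether a library came from 1 animal. Errors and p-values therefore describe the spread of these libraries, which may be technical. Groups follow the sample titles and the group tag. In 12 libraries the time and treatment tags go against the title. Those titled MHS are tagged as untreated and of day 56, while the day 56 control titles come with tags of treatment and of day 28. The wall stress genes Acta1, Nppa and Myh7 together held between 2651 and 6863 TPM in the libraries titled MHS, between 599 and 1084 TPM in day 28 controls and between 499 and 1531 TPM in those titled control at day 56.

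Glycolysis splits glucose into pyruvate, and the pyruvate is either reduced to lactate or imported into mitochondria and oxidised by pyruvate dehydrogenase. The adult heart draws most of its energy from fatty acids, and hypertrophied hearts are known for a larger use of glucose. Many steps have several isoform genes, of which 1 is dominant in muscle and the others are found in more tissues. Glycogen is the glucose store of the muscle cell, and phosphorylase kinase, a complex with alpha, beta and gamma subunits, activates its breakdown.

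Some libraries stood apart. The atrial gene Myl7 reached 625 TPM and Sln 173 TPM in female control day 28 replicate 2, and female MHS replicate 3 was next with 125 TPM of Myl7. The sum of 4 Y-linked genes was 26.1% of the male mean in female MHS_RR replicate 3, against at most 1.74% in the other female libraries. The summed markers of ventricular cardiomyocytes (Myh6, Myl2, Tnnt2, Tnni3, Actc1, Ryr2 and Pln) were between 79466 and 87870 TPM in MHS and between 91801 and 100414 TPM in day 28 controls, and 3 of the 7 genes fell. The summed fibroblast markers were between 1082 and 2072 TPM in MHS and between 717 and 1009 TPM in day 28 controls, and 5 of the 7 genes rose. Over all tested genes 6.24% fell and 11.6% rose in MHS by the limma test given below. The highest fibroblast sum, 2072 TPM, was that of female MHS replicate 2, and the next MHS library held 1344 TPM. Female MHS replicate 2 also had the highest macrophage sum (258 TPM). Both the cardiomyocyte and the fibroblast sum separated the groups at day 28, and the mean sum of the mural markers was 30.7% higher in MHS with overlapping ranges. Every marker sum overlapped between MHS_RR and its controls. Single markers were nonetheless lower in MHS_RR, 5 of 7 for macrophages (mean sum -22.2%) and 3 of 7 for fibroblasts (-10.9%). For endothelium 3 of 6 were lower (0.442%), for erythroid cells 3 of 6 (-30.4%) and for ventricular cardiomyocytes 1 of 7 (1.41%). Over all tested genes 15.5% were lower in MHS_RR, and that share depended on the scaling (2026 genes, but 914 with median-of-ratios scaling). The part of these shifts in the results on glycolysis was not tested, and in whole tissue fewer cells of a type and less RNA per cell cannot be told apart. The skeletal muscle genes Myh1, Myh2, Myh4 and Actn3 stayed under 1 TPM in every library, and the 8 markers of that tissue summed to between 3.83 and 15.1 TPM.

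The 40 genes together made up between 2.27% and 2.75% of the TPM of each library. In the 12 control libraries the most abundant was Aldoa, the muscle aldolase, with 3743 ± 232 TPM (SD, n = 12). It was followed by the dehydrogenase gene Gapdh with 3539 ± 359 TPM, whose range overlapped that of Aldoa. Next came Ldhb, the heart subunit of lactate dehydrogenase, with 2614 ± 89.9 TPM and no overlap with either neighbour. After it stood the muscle enolase gene Eno3 with 1749 ± 92.1 TPM. At the other end stood the lactate exporter gene Slc16a3 with 1.15 ± 0.43 TPM and Aldoc with 0.08 ± 0.08 TPM. At the steps named next the dominant gene was the form known from muscle or heart. It was Slc2a4 for glucose transport, Hk2 for hexokinase, Pfkm for phosphofructokinase and Pgam2 for phosphoglycerate mutase. Further down it was Eno3 for enolase and Ldhb for lactate dehydrogenase, and in glycogen breakdown Pygm for glycogen phosphorylase. Of the 2 pyruvate dehydrogenase kinases among the 40 genes, Pdk2 was the more abundant.

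Under MHS no tested gene from aldolase to phosphoglycerate kinase was called, while calls among isoforms, transporters and regulators went both higher and lower. As the mean of both sexes, 16 of the 39 tested genes changed (limma, Benjamini-Hochberg adjusted p under 0.05 over all 13058 tested genes), 7 of them higher and 9 lower. Over all tested genes 17.8% changed, 11.6% higher and 6.24% lower. This split of all genes, 1514 higher and 815 lower, was 1281 and 1051 with median-of-ratios scaling, 1143 and 1274 after quantile normalization, and 1326 and 1462 with a correction for GC content and length. The 39 genes split 7 and 10, 8 and 10, and 6 and 12 under these settings. The median log2 fold change was 0.03 for the 39 genes and 0.04 for all genes. The TPM of the 6 MHS libraries and the 6 day 28 controls did not overlap for 14 of the 39 genes, 6 higher and 8 lower, against 7.21% of all genes (4.89% higher and 2.32% lower). The higher genes were Pfkp, Pfkl, Phka1, Pgam1, Pdk1, Slc16a1 and Slc16a3, and the lower ones were Pfkm, Ldhb, Eno3, Slc2a4, Phkg1, Pdk2, Pkm, Pygm and Pfkfb1. Of these 16 calls 14 held in each of the 34 alternatives tried, and the exceptions were Slc16a1 and Pfkfb1. Without both female control day 28 replicate 2 and female MHS_RR replicate 3, 16 genes were called, 7 higher and 9 lower. Without female MHS replicate 2, which stood apart in its fibroblast sum, 15 were called, 7 higher and 8 lower.

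**Figure D1:**
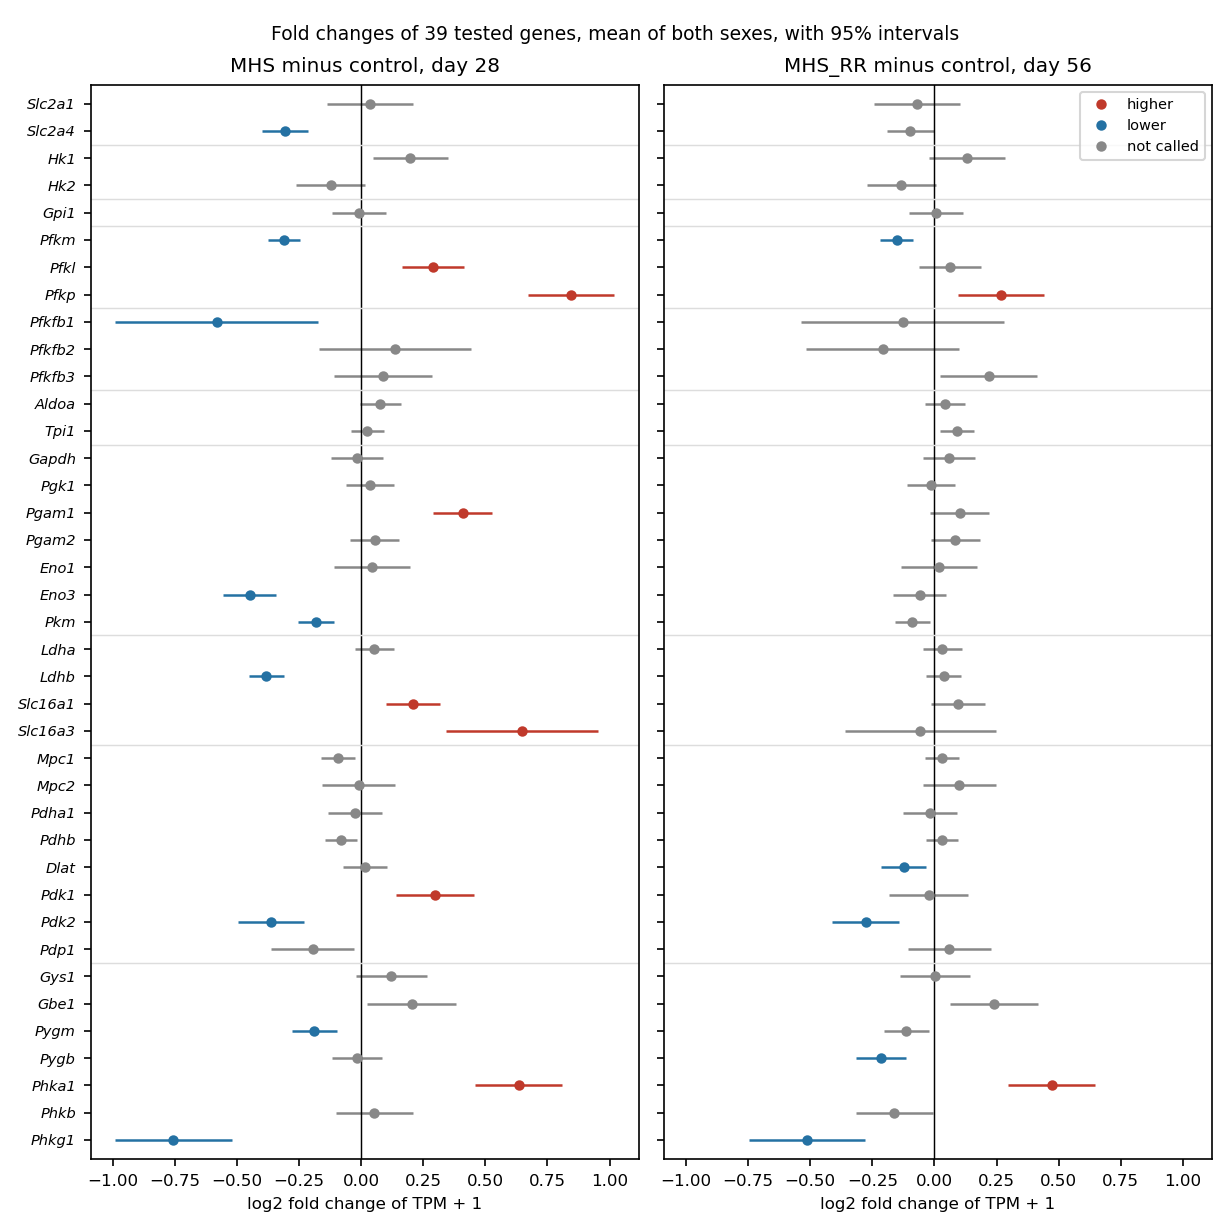
Log2 fold changes (x axis, on the log2(TPM + 1) scale) of the 39 tested genes (y axis, ordered by step, with lines between steps), for MHS against day 28 controls on the left and MHS_RR against day 56 controls on the right. Points are means of both sexes and bars are 95% intervals, red for higher, blue for lower and grey for not called, with 7 red and 9 blue on the left and 2 red and 5 blue on the right.

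At the point where glucose enters the cell, the insulin-responsive transporter gene Slc2a4 (GLUT4) fell. Its TPM was 357, 321 and 332 in male controls and 282, 277 and 251 in male MHS. In females it was 378, 349 and 355 in controls and 300, 286 and 296 in MHS. Each MHS library was below each day 28 control. The log2 fold change as the mean of both sexes was -0.31 ± 0.04 (SE, adjusted p = 6.6e-05). Slc2a1 (GLUT1), the transporter of most tissues, was far less abundant, between 11.9 and 16.9 TPM in all libraries, and was not called (0.04 ± 0.08, adjusted p = 0.83). The hexokinases trap glucose in the cell by phosphorylating it. Hk1, the form of most tissues, was between 124 and 142 TPM in MHS and between 98.4 and 122 TPM in day 28 controls, with no overlap, but was not called (0.20 ± 0.07, adjusted p = 0.067). Hk2, the form of insulin-sensitive muscle, was at -0.12 ± 0.07 (adjusted p = 0.24). Gpi1, the isomerase after it, was at -0.01 ± 0.05 (adjusted p = 0.94).

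Phosphofructokinase is the main control point of glycolysis, and its 3 genes parted. Pfkm, the muscle form, had 853, 814 and 823 TPM in male controls and 656, 704 and 679 TPM in male MHS. Female controls held 863, 871 and 881 TPM and female MHS 686, 668 and 723 TPM. The groups were fully apart and Pfkm fell by 0.31 ± 0.03 on the log2 scale (adjusted p = 1.2e-06). Pfkp, the platelet form, rose from 31.5, 30.4 and 29.8 TPM in male controls to 49.9, 66.6 and 62.1 TPM in male MHS. In females the values were 29.6, 26.6 and 29.1 TPM in controls and 43.5, 51.3 and 51.6 TPM in MHS. All 6 MHS libraries lay above all 12 controls, and the log2 fold change was 0.84 ± 0.08 (adjusted p = 1e-06), the lowest adjusted p among the higher genes. Pfkl, the liver form, was between 62.8 and 79.0 TPM in day 28 controls and between 79.9 and 92.6 TPM in MHS, and rose by 0.29 ± 0.06 (adjusted p = 0.0016).

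The bifunctional Pfkfb enzymes make and remove the sugar bisphosphate that activates phosphofructokinase. Pfkfb2, known as the heart form, was the most abundant of them (55.5 ± 12.2 TPM, SD, in the 12 controls) and was not called (0.14 ± 0.15, adjusted p = 0.60). Pfkfb3 was at 0.09 ± 0.09 (adjusted p = 0.59). Pfkfb1, a form of liver and muscle, was between 7.86 and 17.6 TPM in day 28 controls and between 6.605 and 14.6 TPM in MHS. The groups overlapped, and the fall of 0.58 ± 0.20 passed narrowly (adjusted p = 0.044). This call ended without any 1 of 12 libraries (adjusted p between 0.0503 and 0.126). At day 28 these were replicates 2 and 3 of the controls and of MHS in each sex. At day 56 they were replicate 2 of male MHS_RR, replicate 3 of the female controls, and replicates 1 and 2 of female MHS_RR.

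The steps from aldolase to phosphoglycerate kinase held no call. Aldoa and Gapdh were the most abundant of the 40 genes in controls. Tpi1 (883 TPM) and Pgk1 (474 TPM) were less abundant there than Ldhb, Eno3 and Pkm, which were all called lower. Aldoa was between 3432 and 3910 TPM in day 28 controls and between 3701 and 3958 TPM in MHS (log2 fold change 0.08 ± 0.04, adjusted p = 0.20). Gapdh was at -0.02 ± 0.05 with a 95% interval from -0.12 to 0.09. Tpi1, the triose isomerase, and Pgk1, which makes the first ATP of the pathway, were at 0.03 ± 0.03 and 0.04 ± 0.05. The bound farthest from 0 among the 95% intervals of these 4 genes was 0.16, for Aldoa. Gapdh, Tpi1, Pgam1 and Eno1 have processed copies elsewhere in the mouse genome, and how shared reads were assigned is not given in the sources used here.

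Below this stretch, the mutase and enolase genes moved apart from their partners. Pgam1, the mutase of most tissues, had 107, 88.5 and 80.1 TPM in male controls and 126, 129 and 121 TPM in male MHS. Female controls held 88.3, 79.5 and 82.1 TPM and female MHS 112, 105 and 106 TPM. The groups did not overlap within either sex, though male control replicate 1 reached above 2 of the female MHS libraries, and Pgam1 rose by 0.41 ± 0.06 (adjusted p = 4e-05). Pgam2, the muscle mutase, was more abundant by more than an order of magnitude and was not called (0.05 ± 0.05, adjusted p = 0.50). Eno3, the muscle enolase, had 1788, 1728 and 1573 TPM in male controls and 1223, 1162 and 1231 TPM in male MHS. In females it had 1719, 1625 and 1773 TPM in controls and 1416, 1255 and 1193 TPM in MHS. Every MHS library was below every control, and Eno3 fell by 0.45 ± 0.05 (adjusted p = 4e-06). Eno1, the enolase of most tissues, was between 93.2 and 136 TPM in day 28 controls and between 107 and 144 TPM in MHS, and was not called (0.04 ± 0.07, adjusted p = 0.75). Pkm, the pyruvate kinase gene, was between 1098 and 1234 TPM in day 28 controls and between 971 and 1051 TPM in MHS. It fell by 0.18 ± 0.03 (adjusted p = 0.00095) with no overlap, and the table does not separate its M1 and M2 splice forms.

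**Figure D2:**
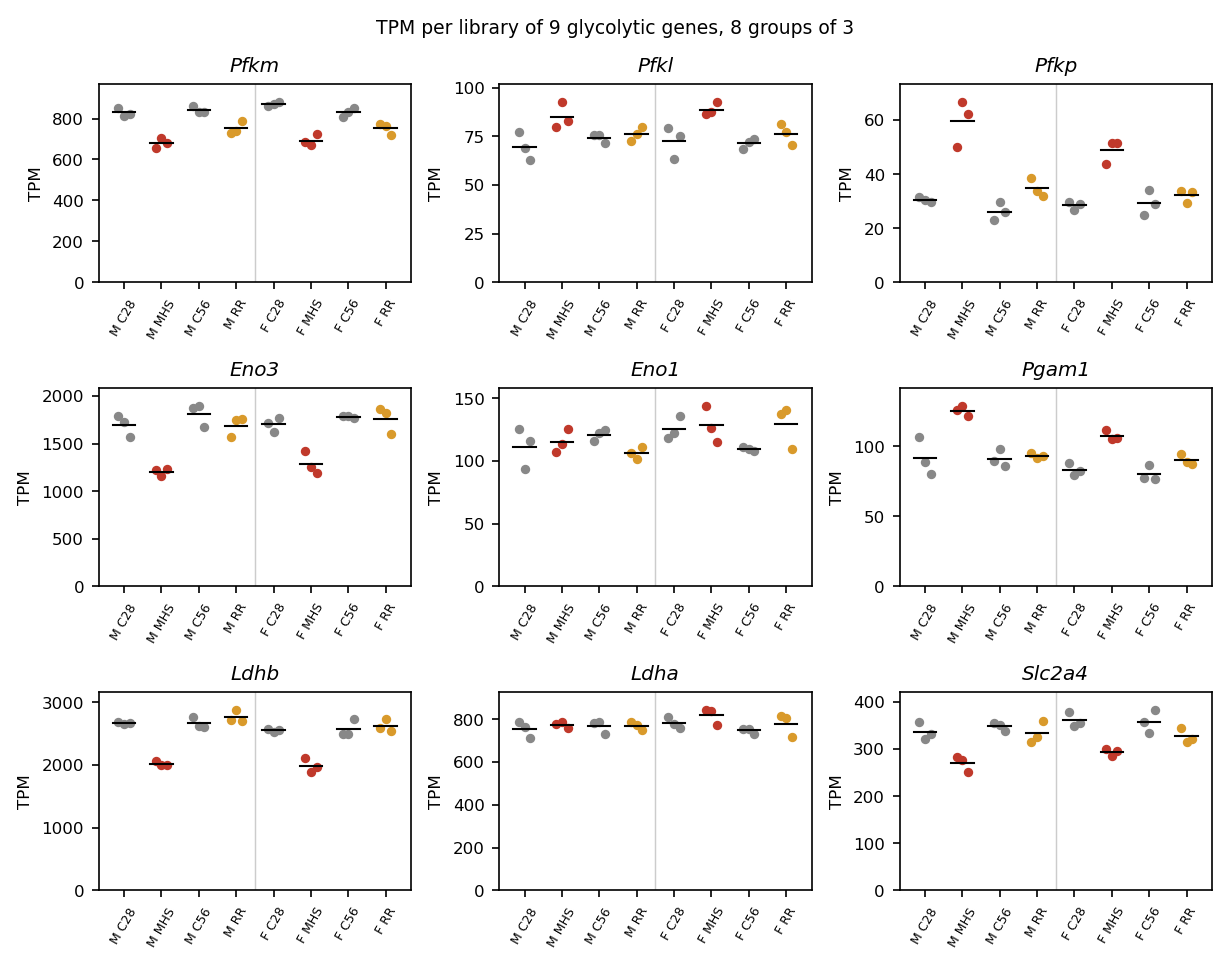
TPM (y axis, from 0) of 9 genes in each of the 24 libraries. Groups of 3 are ordered as male (M) and female (F) control day 28 (C28), MHS, control day 56 (C56) and MHS_RR (RR), with points for libraries and black lines for group means. Pfkm, Eno3, Ldhb and Slc2a4 are lower and Pfkp and Pfkl higher in all 6 MHS libraries than in the 6 day 28 controls, while Eno1 and Ldha overlap.

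At the branch to lactate the heart subunit fell and the muscle subunit was not called. Ldhb encodes the subunit that is dominant in heart, and it had 2682, 2648 and 2668 TPM in male controls and 2064, 1993 and 1994 TPM in male MHS. In females the values were 2571, 2522 and 2556 TPM in controls and 2112, 1891 and 1957 TPM in MHS. The groups were far apart relative to their spread. The fall of Ldhb was 0.38 ± 0.03 on the log2 scale (adjusted p = 3.6e-07), the lowest adjusted p among the 39 genes. Ldha, the subunit dominant in skeletal muscle, was between 712 and 807 TPM in day 28 controls and between 760 and 842 TPM in MHS (0.05 ± 0.04, adjusted p = 0.40). Among the lactate carriers Slc16a1 (MCT1) was between 117 and 144 TPM in day 28 controls and between 146 and 163 TPM in MHS. It rose by 0.21 ± 0.05 (adjusted p = 0.0082), but with a correction for GC content and length the log2 fold change was 0.11 (adjusted p = 0.34). Slc16a3 (MCT4), the exporter of glycolytic cells, was between 0.745 and 1.65 TPM in day 28 controls and between 1.75 and 3.14 TPM in MHS. It rose by 0.65 ± 0.15 (adjusted p = 0.0035), a size that the added 1 TPM understates at such a low level.

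In pyruvate entry the calls were on kinases, and none was on the carrier or on the enzyme complex. The mitochondrial pyruvate carrier genes Mpc1 and Mpc2 and the pyruvate dehydrogenase subunit genes Pdha1, Pdhb and Dlat had log2 fold changes between -0.09 and 0.02, and none was called. The kinases Pdk1 and Pdk2 phosphorylate and inhibit pyruvate dehydrogenase. Pdk2 had 598, 528 and 624 TPM in male controls and 469, 460 and 460 TPM in male MHS. Female controls held 552, 612 and 596 TPM and female MHS 461, 423 and 450 TPM. Pdk2 fell by 0.36 ± 0.06 with no overlap (adjusted p = 0.00046). Pdk1, the kinase known as a target of hypoxia signalling, moved the other way, from between 81.6 and 103 TPM in day 28 controls to between 97.5 and 124 TPM in MHS (0.30 ± 0.08, adjusted p = 0.0089). The ranges of Pdk1 overlapped in females and not in males. Pdp1, the phosphatase that reactivates the complex, was not called (-0.19 ± 0.08, adjusted p = 0.11).

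In glycogen metabolism the subunits of phosphorylase kinase moved in opposite directions. Phka1, the muscle alpha subunit, had 17.7, 15.6 and 20.5 TPM in male controls and 35.4, 31.0 and 28.6 TPM in male MHS. Female controls held 19.1, 20.3 and 21.7 TPM and female MHS 25.9, 28.6 and 32.0 TPM. All MHS libraries were above all controls, and Phka1 rose by 0.63 ± 0.08 (adjusted p = 2.3e-05). Phkg1, the catalytic gamma subunit of muscle, had 20.03, 23.0 and 22.03 TPM in male controls and 14.8, 11.8 and 12.5 TPM in male MHS. In females it had 22.2, 24.3 and 25.1 TPM in controls and 18.4, 12.1 and 10.1 TPM in MHS. It fell by 0.76 ± 0.11 with no overlap (adjusted p = 7.5e-05). Phkb, the beta subunit, was at 0.05 ± 0.07 (adjusted p = 0.70). Pygm, the muscle glycogen phosphorylase that this kinase activates, was between 951 and 1123 TPM in day 28 controls and between 873 and 945 TPM in MHS, and fell by 0.19 ± 0.04 (adjusted p = 0.0042). The brain form Pygb, glycogen synthase Gys1 and the branching enzyme Gbe1 were not called, with log2 fold changes of -0.02 ± 0.05, 0.12 ± 0.07 and 0.20 ± 0.09.

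**Figure D3:**
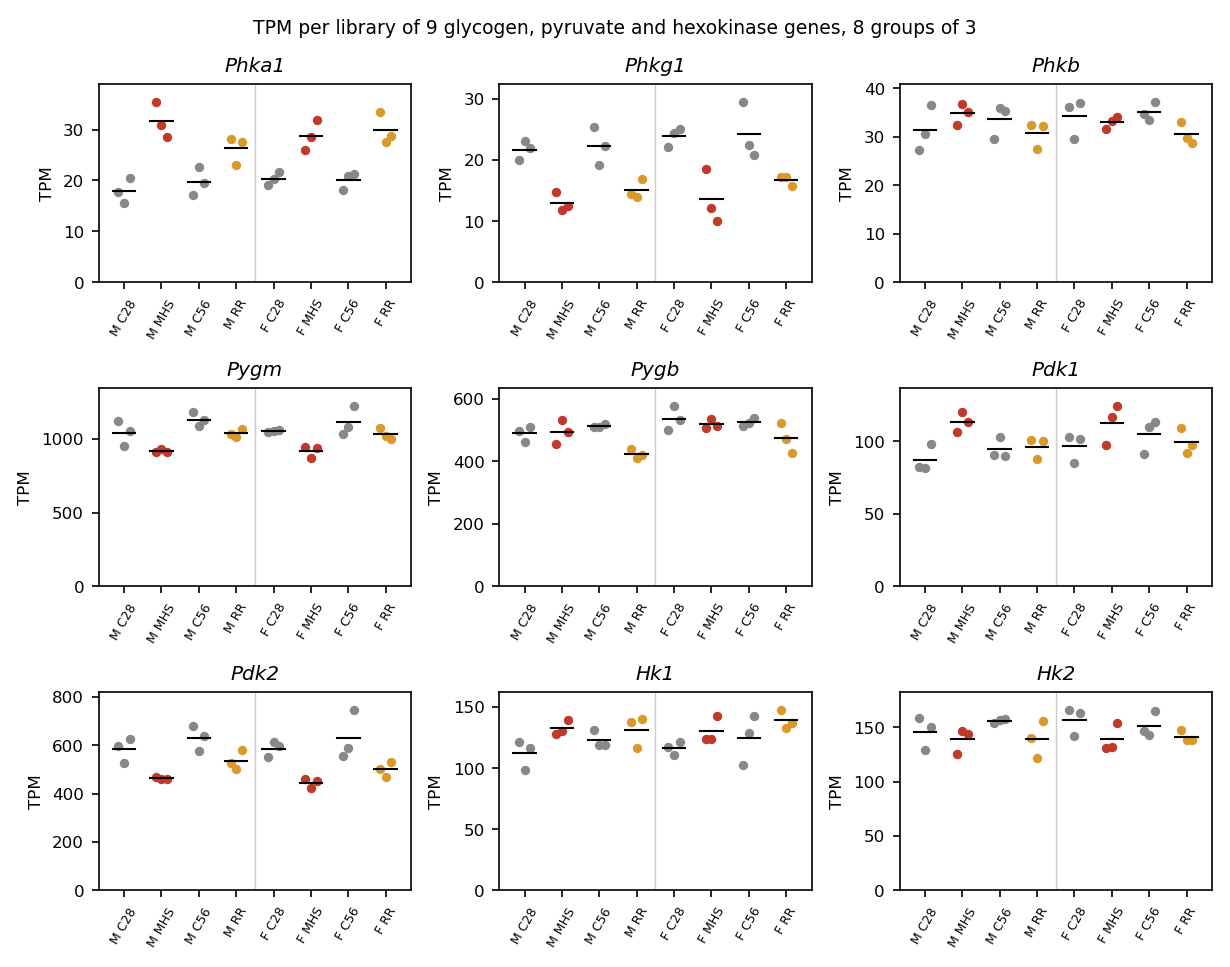
TPM (y axis, from 0) of 9 genes of glycogen turnover, pyruvate dehydrogenase regulation and hexokinase in each of the 24 libraries. Groups are ordered and marked as male (M) and female (F) control day 28 (C28), MHS, control day 56 (C56) and MHS_RR (RR), with points for libraries and black lines for group means. Phka1 is higher and Phkg1 lower than the controls of the same day in all MHS and all MHS_RR libraries.

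The sequences just before the start sites of Pfkp and Phka1, which rose, and of Ldhb and Eno3, which fell, are shown to set these members side by side. In each direction these genes had the lowest adjusted p under MHS among the called members with a single RefSeq window. Pfkm, with a lower adjusted p than Eno3, has several windows and was passed over. They are the 250 bases upstream of the start in RefSeq promoter windows of the GRCm38.p6 build, which is not the mm9 build of the deposited table. Capitals mark matches, on either strand, to GGGCGG (a GC box) or to ACGTG (a core of the hypoxia response element). They also mark CTA and TAG with any 4 bases between them. This pattern is looser than the MEF2 site, which takes only A or T at those 4 bases. None of the printed matches overlap.
Pfkp, chr13:6648772-6649021, minus strand: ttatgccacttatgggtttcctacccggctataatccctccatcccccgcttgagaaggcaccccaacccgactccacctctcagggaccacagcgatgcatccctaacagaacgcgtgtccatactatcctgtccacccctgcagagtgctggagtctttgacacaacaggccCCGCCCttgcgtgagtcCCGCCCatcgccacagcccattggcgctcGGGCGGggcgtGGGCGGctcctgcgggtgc
Phka1, chrX:102644247-102644496, minus strand: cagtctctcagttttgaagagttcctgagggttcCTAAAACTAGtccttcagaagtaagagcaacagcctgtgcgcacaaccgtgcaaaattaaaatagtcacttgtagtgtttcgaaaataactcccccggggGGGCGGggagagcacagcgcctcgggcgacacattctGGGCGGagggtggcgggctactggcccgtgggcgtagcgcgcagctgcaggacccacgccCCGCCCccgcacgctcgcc
Ldhb, chr6:142507958-142508207, minus strand: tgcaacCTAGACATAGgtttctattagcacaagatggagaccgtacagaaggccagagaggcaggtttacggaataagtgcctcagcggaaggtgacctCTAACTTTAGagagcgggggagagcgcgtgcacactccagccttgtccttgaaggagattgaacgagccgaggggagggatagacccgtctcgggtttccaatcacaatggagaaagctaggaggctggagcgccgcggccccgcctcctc
Eno3, chr11:70656926-70657175, plus strand: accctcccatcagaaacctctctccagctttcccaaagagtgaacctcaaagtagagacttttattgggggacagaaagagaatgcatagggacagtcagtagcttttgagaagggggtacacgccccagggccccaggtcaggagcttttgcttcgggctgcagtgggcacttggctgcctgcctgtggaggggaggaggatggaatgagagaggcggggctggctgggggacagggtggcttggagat

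Of the 40 genes 38 had a RefSeq window, and Slc2a4 and Pdp1 had none in the table used. GGGCGG was found 4 times in the Pfkp sequence and 3 times in that of Phka1, and was not found in those of Ldhb and Eno3. The CTA-TAG pattern was found 2 times before Ldhb and 1 time before Phka1. Each time a G or C was among the middle bases, so none of these matches has the MEF2 site. Over all windows of the members that rose under MHS, 62.5% held GGGCGG (5 of 8), against 12.5% for those that fell (2 of 16) and 62.5% for those not called (20 of 32). Of all 32851 windows 32.7% held it. ACGTG was found in 37.5%, 31.2% and 37.5% of these windows and in 16.6% of all windows. The CTA-TAG pattern was found in 12.5%, 6.25% and 3.12% and in 3.2% of all windows. Several genes have more than 1 window, so the windows are not independent, and a match is a description of the letters only.

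The same 11 genes were called in males and in females, Slc16a3 and Pdk1 were called in males alone, and no difference between the sexes passed the test. In male MHS 13 of the 39 genes were called, 6 higher and 7 lower, against 10.2% of all genes (7.71% higher and 2.52% lower). In female MHS 11 were called, 4 higher and 7 lower, against 5.76% of all genes (3.4% higher and 2.36% lower). Pfkp rose by 0.93 ± 0.12 in males and by 0.76 ± 0.12 in females. Ldhb fell by 0.40 ± 0.05 and 0.36 ± 0.05, Eno3 by 0.49 ± 0.07 and 0.41 ± 0.07, and Pfkm by 0.29 ± 0.04 and 0.33 ± 0.04. Phka1 rose by 0.79 ± 0.12 in males and by 0.48 ± 0.12 in females. These pairs of values lay close together, with Phka1 the farthest apart. The female minus male difference of the MHS effect was called for 0 of the 39 genes in limma and for 0.00766% of all genes, and 1 of the 39 had an unadjusted p under 0.05. It was Pfkfb3, the inducible bifunctional enzyme, with a log2 fold change of 0.39 ± 0.13 in males and -0.21 ± 0.13 in females, neither called (difference -0.59 ± 0.19, adjusted p = 0.96). The difference for Phka1 was -0.31 ± 0.17, with a 95% interval from -0.66 to 0.04.

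The counts within a sex rested on few libraries. Without male MHS replicate 2 or without male MHS replicate 3 the male count was 8, and the female count was 7 if female MHS replicate 2 was left out. With both female control day 28 replicate 2 and female MHS_RR replicate 3 left out, the female count was 7 (1 higher and 6 lower) and the male count 15. Slc2a4, Pfkm, Pfkp, Eno3, Ldhb, Phka1 and Phkg1 stayed called in males, and Pfkm, Pfkp and Ldhb in females, in every alternative, as did Pgam1 when each library was left out in turn. In males the calls of Pfkl, Pkm, Slc16a3, Pdk1 and Pdk2 each ended without at least 1 of male control day 28 replicates 1, 2 and 3 and male MHS replicates 2 and 3 (highest adjusted p 0.17 for Pfkl). In females the calls of Pkm, Pdk2 and Phka1 each ended without at least 1 of female control day 28 replicates 1, 2 and 3 and female MHS replicates 2 and 3 (adjusted p from 0.0503 for Pdk2 to 0.13 for Pkm). The female Pfkl call ended without any 1 of 11 libraries, with adjusted p from 0.0502 to 0.23, the last without female control day 28 replicate 2. The others were female control day 28 replicate 3, each female MHS library, female control day 56 replicates 2 and 3, female MHS_RR replicate 2, and replicate 2 of the male controls at day 28, 3 of male MHS and 3 of the male controls at day 56.

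The ratio of paired isoform genes was taken within each library, where scaling of the library cancels. A bias by the GC content or length of a gene does not cancel, and the GC and length correction was not applied to the ratios. In MHS 10 of 11 ratios moved, each toward the isoform that was the less abundant in controls (exact permutation test within sex, two-sided, Benjamini-Hochberg over 22 tests). The smallest p these 400 regroupings allow is 0.005. Ratios of genes already called above repeat those calls in another form. Pfkm outnumbered Pfkp by a median of 28.4 to 1 in day 28 controls (26.8 to 32.8) and by 13.1 to 1 in MHS (10.6 to 15.8). By the mean log2 ratio, Pfkp to Pfkm was 2.26 times higher (log2 difference 1.18, exact permutation p = 0.005, adjusted p = 0.012). The excess of Ldhb over Ldha went from 3.39 (3.18 to 3.75) to 2.54 (2.25 to 2.66), and that of Eno3 over Eno1 from 13.9 (13.1 to 18.5) to 10.1 (9.82 to 11.4). Neither pair of ranges overlapped. Pdk2 exceeded Pdk1 6.41 times in controls and 3.94 times in MHS, and Pgam2 exceeded Pgam1 13.2 times and 10.5 times, again without overlap.

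The hexokinase pair moved although neither gene was called alone. Hk2 exceeded Hk1 in each day 28 control, by 1.28 to 1.41 times, and the 2 were close to equal in MHS, between 0.98 and 1.13 times. The log2 difference of Hk1 to Hk2 was 0.31 in males and 0.33 in females (exact permutation p = 0.005, adjusted p = 0.012). The ratios of Slc2a1 to Slc2a4 (0.35), Slc16a3 to Slc16a1 (0.89) and Pygb to Pygm (0.17) moved with overlapping ranges (exact permutation p = 0.015, adjusted p = 0.025 for each). Aldoc to Aldoa was not called (-0.04, exact permutation p = 0.68). All 10 calls held when each of the 12 libraries was left out in turn.

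**Figure D4:**
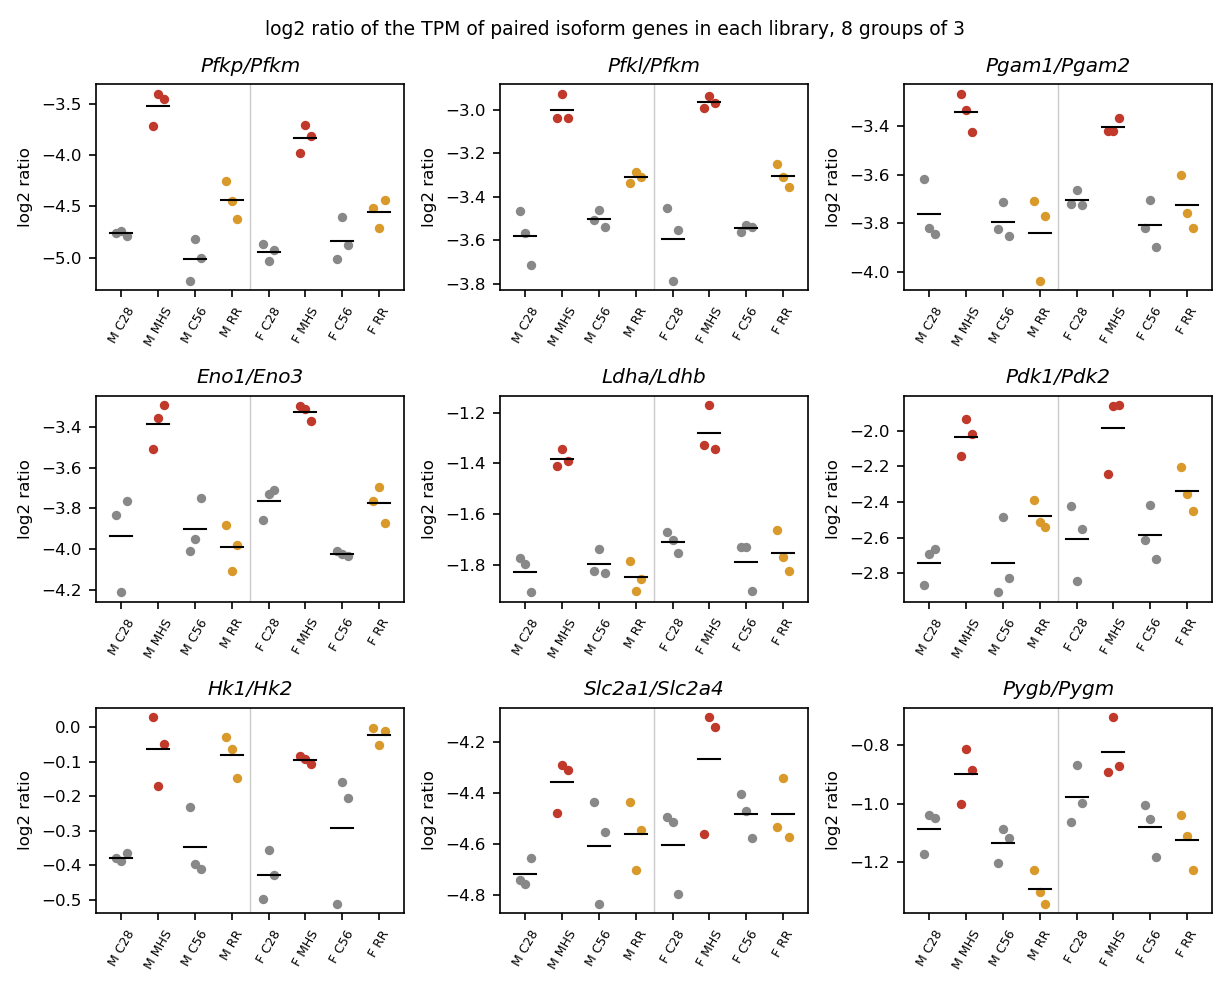
Log2 ratio (y axis) of the TPM of 2 isoform genes in each library, for 9 of the 11 pairs. Groups are ordered as male (M) and female (F) control day 28 (C28), MHS, control day 56 (C56) and MHS_RR (RR), with points for libraries and black lines for group means. MHS lies above the day 28 controls without overlap in 7 pairs, and MHS_RR above the day 56 controls without overlap in Pfkl/Pfkm and Hk1/Hk2.

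After reverse remodeling 32 of the 39 genes were not called against their day 56 controls, and the phosphorylase kinase subunits Phka1 and Phkg1 were the firmest of the calls. As the mean of both sexes, 7 of the 39 genes were called, 2 higher and 5 lower. Over all genes 17.6% were called, 2.11% higher and 15.5% lower, so the share of the 39 genes was at the background. The direction of these calls depended on the scaling. All genes split 275 higher and 2026 lower, but 639 and 914 with median-of-ratios scaling, 435 and 923 after quantile normalization and 694 and 856 with the GC and length correction, and the 39 genes 2 and 5, but 7 and 1, 3 and 4, and 5 and 4. The median log2 fold change was 0.01 for the 39 genes and -0.07 for all genes. Ranges of 6 against 6 libraries did not overlap for 3 genes (Phka1 higher, Phkg1 and Pfkm lower), against 5.88% of all genes (0.582% higher and 5.3% lower).

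Phka1 had 17.2, 22.6 and 19.5 TPM in male controls at day 56 and 28.2, 23.1 and 27.6 TPM in male MHS_RR. In females it had 18.2, 20.9 and 21.3 TPM in controls and 33.4, 27.6 and 28.7 TPM in MHS_RR. All MHS_RR libraries were above all day 56 controls, and Phka1 was higher by 0.47 ± 0.08 (adjusted p = 0.0016). Phkg1 had 25.3, 19.1 and 22.3 TPM in male controls and 14.4, 14.0 and 16.9 TPM in male MHS_RR. Female controls held 29.5, 22.5 and 20.8 TPM and female MHS_RR 17.2, 17.2 and 15.8 TPM. It was lower by 0.51 ± 0.11 without overlap (log2 fold change -0.51, adjusted p = 0.0053). Both calls held in every alternative.

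The other 5 calls were less firm. Without both female control day 28 replicate 2 and female MHS_RR replicate 3, 6 genes were called, 2 higher and 4 lower. Pfkm, between 809 and 862 TPM in day 56 controls, was between 721 and 789 TPM in MHS_RR (-0.15 ± 0.03, adjusted p = 0.0037). With a correction for GC content and length its log2 fold change was 0.0039 (adjusted p = 0.96), and with median-of-ratios scaling it was -0.07 (adjusted p = 0.27). The call ended in both settings. Pdk2 was at -0.28 ± 0.06 (adjusted p = 0.0073) and Pygb at -0.21 ± 0.05 (adjusted p = 0.0062), and with median-of-ratios scaling their adjusted p were 0.063 and 0.085. Pfkp was at 0.27 ± 0.08 (adjusted p = 0.031). The Pfkp call ended, with adjusted p between 0.0545 and 0.0868, without any 1 of 8 libraries, namely replicates 1 and 3 of the controls of each sex at day 56, replicates 1 and 2 of male MHS_RR, and replicates 1 and 3 of female MHS_RR. Dlat, the acetyltransferase subunit of pyruvate dehydrogenase, was at -0.12 ± 0.04 (adjusted p = 0.0495). The Dlat call held in 8 of 34 alternatives. Of the 24 fits that each left out 1 library, 5 kept it, those without replicate 3 of the male controls, 2 or 3 of the female controls (all at day 28), 3 of male MHS_RR or 1 of the female controls at day 56.

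Ldhb, the gene with the lowest adjusted p in MHS, was between 2494 and 2767 TPM in day 56 controls and between 2531 and 2872 TPM in MHS_RR (0.04 ± 0.03, adjusted p = 0.46). Eno3 was at -0.06 ± 0.05 and Slc2a4 at -0.10 ± 0.04, neither called. Pgam1, Pfkl and Pdk1 were at 0.10 ± 0.06, 0.06 ± 0.06 and -0.02 ± 0.08, none called. Within a sex, limma called 0 of the 39 genes in males (8 with an unadjusted p under 0.05), against 0.0919% of all genes (0.00766% higher and 0.0842% lower). In females 2 were called, 1 higher and 1 lower, against 5.11% of all genes (0.544% higher and 4.56% lower). They were Phka1 (0.55 ± 0.12, adjusted p = 0.014), which held in every alternative, and Pdk2 (-0.32 ± 0.09, adjusted p = 0.046), which held in 11 of 34. The Pdk2 call ended without any 1 of 16 libraries, up to an adjusted p of 0.25 without female control day 56 replicate 3, and held only without replicates 2 or 3 of the male controls at day 28, 1 or 2 of the male controls at day 56, 2 or 3 of male MHS_RR, 2 of the female controls at day 28 or 1 of those at day 56. The female minus male difference of the MHS_RR effect was called for 0 of the 39 genes and 0% of all genes in limma, with 2 of the 39 at an unadjusted p under 0.05. These were Eno1 (0.41 ± 0.15) and Slc16a1 (0.25 ± 0.11), each with an adjusted p of 1.

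Of the 11 isoform ratios 4 were called in MHS_RR. Hk1 to Hk2 was higher by 0.27 (exact permutation p = 0.005, adjusted p = 0.012), and Hk2 exceeded Hk1 between 1.12 and 1.43 times in day 56 controls and between 1.002 and 1.11 times in MHS_RR. Pfkl to Pfkm was higher by 0.22 (exact permutation p = 0.005, adjusted p = 0.012) and Pfkp to Pfkm by 0.43 (exact permutation p = 0.01, adjusted p = 0.022). Both hold Pfkm, whose log2 fold change of -0.15 became 0.0039 with the GC and length correction, and the ratios were not tested with that correction. Pdk1 to Pdk2 was higher by 0.25 (exact permutation p = 0.03, adjusted p = 0.047). The Pdk1/Pdk2 call ended, with adjusted p between 0.063 and 0.086, without any 1 of the libraries of day 56 except male control replicate 2, female control replicate 2 and female MHS_RR replicate 3. The ratios Ldha to Ldhb (-0.01, exact permutation p = 0.88) and Pgam1 to Pgam2 (0.02, exact permutation p = 0.77) were not called.

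The MHS effect and the MHS_RR effect were compared directly, each against the controls of its own day. The difference was called for 9 of the 39 genes, 4 higher and 5 lower in MHS_RR, against 19.4% of all genes (2.79% higher and 16.6% lower). Without both female control day 28 replicate 2 and female MHS_RR replicate 3 it was called for 8, 4 higher and 4 lower. The median of all genes was -0.10 and that of the 39 genes 0.01. With median-of-ratios scaling the median of all genes was 0.01, with quantile normalization and with the GC and length correction 0.02. The split of all genes, 364 higher and 2165 lower, became 821 and 1120, 785 and 1022, and 1066 and 1051, and that of the 39 genes 8 and 2, 4 and 1, and 9 and 2. Ldhb (0.42 ± 0.05, adjusted p = 2e-05), Eno3 (0.39 ± 0.07, adjusted p = 0.001) and Pfkp (-0.58 ± 0.12, adjusted p = 0.0023) differed in every alternative, each with the MHS_RR effect nearer to 0. Pfkm differed by 0.16 ± 0.04 (adjusted p = 0.018), and by 0.11 (adjusted p = 0.14) after quantile normalization. Slc16a3 differed by -0.70 ± 0.21 (adjusted p = 0.022), and had an adjusted p of 0.058 after quantile normalization. Pgam1 differed by -0.31 ± 0.08 (adjusted p = 0.012), and by -0.19 (adjusted p = 0.16) with median-of-ratios scaling. Its call also ended after quantile normalization (-0.22, adjusted p = 0.081) and with the GC and length correction (-0.21, adjusted p = 0.068). With that correction and the replicate block the adjusted p was 0.056.

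The remaining calls of this difference ended when single libraries were left out, and those of Pdk1 and Pygb also with another scaling. Slc2a4 differed by 0.21 ± 0.06 (adjusted p = 0.027), and leaving out male MHS replicate 3, female control day 28 replicate 1 or female control day 56 replicate 2 gave adjusted p of 0.0553, 0.0503 and 0.055. Pdk1 (-0.32 ± 0.11, adjusted p = 0.041) and Pygb (-0.20 ± 0.07, adjusted p = 0.048) held in 15 and 11 of 34 alternatives. The Pdk1 call ended without any 1 of 13 libraries (adjusted p from 0.0621 to 0.0812), which were replicates 1 and 2 of the male and 2 of the female controls at day 28, 2 and 3 of MHS in each sex, 2 of the male and 2 and 3 of the female controls at day 56, 2 of male MHS_RR and 2 and 3 of female MHS_RR. The Pygb call held only without replicate 3 of the male or 2 of the female controls at day 28, 1 of male MHS, 1 of the female controls at day 56, or 1 of MHS_RR in either sex, and without any 1 of the other 18 libraries its adjusted p was from 0.0524 to 0.0943. With median-of-ratios scaling the Pdk1 difference was -0.20 (adjusted p = 0.13) and the Pygb difference -0.07 (adjusted p = 0.50), and with the GC and length correction they were -0.24 (adjusted p = 0.064) and -0.10 (adjusted p = 0.24). For Phka1 the difference was -0.16 ± 0.12 (95% interval from -0.41 to 0.09) and for Phkg1 0.24 ± 0.16 (95% interval from -0.09 to 0.57), neither called.

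Other genes of the same metabolism were counted in a list of 50, of which 47 were tested, while Gys2, Hkdc1 and Pklr stayed under 1 TPM. In MHS 10 of the 47 rose and 5 fell, against 11.6% higher and 6.24% lower over all genes. The median log2 fold change was 0.04, as over all genes. Prkag2, a regulatory subunit of AMP-activated protein kinase, rose by 0.30 ± 0.07 in MHS (adjusted p = 0.0027). Pdp2, a phosphatase of pyruvate dehydrogenase, fell by 0.44 ± 0.09 in MHS (adjusted p = 0.0026) and was lower by 0.48 ± 0.09 in MHS_RR (log2 fold change -0.48, adjusted p = 0.0028).

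In MHS_RR 0 genes of the list were higher and 8 were lower, which is 8 of 47 against 15.5% lower over all genes, a share near the background. The median was -0.04, against -0.07 for all genes. Pdk4, the kinase of pyruvate dehydrogenase that fasting and fatty acids induce, had 860, 312 and 299 TPM in male controls at day 56 and 149, 155 and 157 TPM in male MHS_RR. In females it had 277, 1422 and 527 TPM in controls and 150, 67.9 and 356 TPM in MHS_RR. Pdk4 was lower, with a log2 fold change of -1.71 ± 0.38 (adjusted p = 0.0056), but its controls varied widely and the female ranges overlapped. In MHS it was not called (0.46 ± 0.38, adjusted p = 0.47).

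Among the controls, no gene of the 39 was called. The day 56 against day 28 comparison called 0 of the 39 genes and 0% of all genes in limma, with 3 and 642 genes at an unadjusted p under 0.05. The 3 were Gapdh (0.16 ± 0.05), Pygm (0.10 ± 0.04) and Aldoa (0.09 ± 0.04), with adjusted p of 0.84, 0.95 and 0.95. Between control females and males limma called 0 of the 39 genes, against 1.23% of all genes (0.796% higher and 0.437% lower). The unadjusted p was under 0.05 for 9 of the 39, and the lowest adjusted p were those of Pgam2 (-0.18 ± 0.05, adjusted p = 0.068) and Pfkfb3 (0.35 ± 0.09, adjusted p = 0.074).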

How the data were processed

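Left ventricle mRNA libraries were analysed from a single table of TPM values that the authors deposited. The submitters' processing notes name STAR, Salmon and the mm9 genome, without versions or settings. TPM holds no read depth, so intervals for counting error were not computed. Each of the 24 columns matched 1 sample title, and 0 were left over. The design was taken from the sample labels.

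Of the 24972 genes, 13058 reached 1 TPM in 3 or more libraries and were tested. A linear model with 1 mean for each of the 8 groups was fitted to log2(TPM + 1) with limma 3.58.1 in R 4.3.3 (trended variance, 16 degrees of freedom). The 11 contrasts were two-sided, with Benjamini-Hochberg adjustment over all genes of a contrast and a threshold of 0.05. Errors of log2 fold changes are standard errors, with n = 3 libraries per group and n = 6 for means of both sexes. The pseudocount understates changes of low genes. Isoform ratios were tested by exact permutation within sex. In total 34 alternatives were run: the fit without each of the 24 libraries, another pseudocount, no filter, other scalings, array weights, a GC and length correction, a replicate block, smaller fits, and 1 chosen after seeing the data, which left out female control day 28 replicate 2 and female MHS_RR replicate 3.

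The 40 genes, the other lists, the pairs and the alternatives were chosen with earlier results of these data known. The rule for genes given library by library took members called in a treatment comparison, at most the 16 with the lowest adjusted p in the mean of both sexes under MHS, and the most abundant member of each step. From the list of 50 other genes it allowed called genes, at most the 10 with the lowest adjusted p. Some of these are not reported here. Motifs and sequences come from RefSeq windows of 300 bases, of which the 250 upstream bases were searched.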

Additional observations from a re-analysis of the deposited data

How the results depend on the processing

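Of the 16 genes called as the mean of both sexes under MHS, 14 held in all 34 alternatives. The value of Pfkm in MHS_RR went from -0.15 to 0.0039 with the GC and length correction, with or without the replicate block, and its call ended. The TPM depth is unknown, so counting error could not be weighed, and genes near 1 TPM such as Slc16a3 are the least precise. MHS_RR and MHS were set against separate controls. The causes of the shifts below were not tested.

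In brackets are the counts in the fit described above. With array weights the calls over all genes were 2107 in MHS males (1336), 1410 in MHS females (752), 3086 in MHS_RR males (12), 1877 in MHS_RR females (667), 3994 in the MHS_RR mean (2301), 2 for the sex difference of MHS (1), 41 for that of MHS_RR (0), 4019 for MHS_RR minus MHS (2529), 1983 for control sex (161) and 12 for control day (0). The members called were then 14 in MHS_RR males (0), 5 in MHS_RR females (2), 16 in the MHS_RR mean (7), 14 for MHS_RR minus MHS (9) and 5 for control sex (0). Fits of only the groups compared called 613 genes in MHS males, 215 in MHS females with 5 members (11), 0 in MHS_RR males, 186 in MHS_RR females with 1 member, 1364 in the MHS_RR mean, 0 for the sex difference of MHS and 36 for control sex. The GC and length correction called 35 genes and 1 member in MHS_RR males, 333 genes in MHS_RR females, 3 for the sex difference of MHS, 3 members for control sex and 1 gene for control day. In MHS_RR females median-of-ratios scaling called 297 genes, 104 higher and 193 lower against 71 and 596, and quantile normalization 238, 71 higher and 167 lower. In MHS males the split of 1007 higher and 329 lower became 677 and 534, and 612 and 641, under the same scalings. Quantile normalization called 1358 genes in the MHS_RR mean and 5 members for MHS_RR minus MHS, and both scalings called 0 for the sex difference of MHS. Without the filter the calls were 1 member in MHS_RR females, 0 genes for the sex difference of MHS, 1 for that of MHS_RR and 3 for control day. With female control day 28 replicate 2 and female MHS_RR replicate 3 left out, 7 members were called in MHS females, 227 genes in MHS_RR females and 65 for control sex.

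The labels do not say what a replicate number shares, and 6, 10 and 14 of the 28 same-numbered pairs for numbers 1, 2 and 3 had a correlation over 0.1 (medians 0.003, 0.025 and 0.106), so the numbers were not used as pairs. In 13 of 24 libraries the best correlation was with the own number, a hint from the data and not from the design. The replicate block called 241 genes and 1 member in MHS_RR males, and with the GC and length correction 200 genes and 3 members there, 12 members in the MHS_RR mean, 281 genes and 4 members for control sex and 1 gene for control day. It called 19 members in the MHS mean.

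Leaving out 1 library at a time gave 695 to 1418 genes (8 to 15 members) in MHS males, 341 to 790 (7 to 12) in MHS females, 1846 to 2413 (15 to 19) in the MHS mean, 0 to 210 (0 to 2) in MHS_RR males, 89 to 926 (1 to 2) in MHS_RR females and 1239 to 2594 (5 to 8) in the MHS_RR mean. It gave 0 to 2 genes (0 members) for the sex difference of MHS, 0 to 1 (0) for that of MHS_RR, 1935 to 2758 (6 to 11) for MHS_RR minus MHS, 49 to 436 (0 to 3) for control sex, 0 to 1 (0) for control day, and 10 to 10 and 3 to 4 isoform ratios in MHS and MHS_RR. The lowest MHS_RR mean counts over all genes were 1239 without male MHS_RR replicate 2, 1271 without female MHS_RR replicate 2 and 1393 without female control day 56 replicate 3.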
